A study of Mus musculus with 6 samples.

Results

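Genes of iron storage, iron export and mitochondrial iron handling were examined in red cell precursors of fetal liver with and without STAT5. All probe sets that the array annotation pairs with Fth1, Ftl1, Slc40a1, Slc25a37, Slc25a28, Ncoa4, Pcbp1, Pcbp2 or Iscu, and with no other gene, were taken: 13 of the 45037 probe sets that are not controls, for 8 of the 9 genes. Ftl1 had no probe set of its own, because the annotation pairs each of its 3 probe sets with the pseudogene Ftl1-ps2 as well, and 1 further probe set is shared by Slc25a37 and Gm16867. These 4 shared probe sets are given separately. The samples were Ter119-positive cells of mouse embryos at embryonic day 14.5, each sample a pool of 3 to 5 embryos of 1 genotype on an Affymetrix Mouse430_2 array. There were 3 wild type pools, from embryos with STAT5 and no treatment named in the labels, and 3 STAT5 KO pools, called knockout here. STAT5 denotes a pair of transcription factors, encoded by Stat5a and Stat5b, that the erythropoietin receptor activates. The labels name no allele, strain or sex, and each pool mixes cells of several embryos.

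Iron enters a maturing red cell precursor with transferrin and is carried across the inner mitochondrial membrane by mitoferrin to serve heme and iron-sulfur cluster synthesis. Iron not used at once is held in ferritin, a shell of heavy and light subunits, from which it is released when the cargo receptor NCOA4 brings ferritin to the lysosome. Ferroportin, the product of Slc40a1, is the known iron exporter of mammalian cells. Many of these steps are set after transcription, since iron regulatory proteins bind ferritin and ferroportin mRNAs, so that a transcript level does not give the protein level.

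RefSeq promoter windows of the build GRCm38.p6 matched 6 of the 9 genes, with 10 listed starts. They are shown for Fth1, Ftl1 and Ncoa4, the genes of ferritin and its turnover, and hold the 250 bases before a start. The windows are chr19:9982396-9982645 on the plus strand for Fth1, chr7:45459887-45460136 on the minus strand for Ftl1 and chr14:32165539-32165788 on the plus strand for Ncoa4, in each case 5′ to 3′. Capitals mark matches on either strand to CCAAT, to GATAA, the core of GATA factor sites, or to TGACNNNGC, the core of antioxidant response elements.
Fth1: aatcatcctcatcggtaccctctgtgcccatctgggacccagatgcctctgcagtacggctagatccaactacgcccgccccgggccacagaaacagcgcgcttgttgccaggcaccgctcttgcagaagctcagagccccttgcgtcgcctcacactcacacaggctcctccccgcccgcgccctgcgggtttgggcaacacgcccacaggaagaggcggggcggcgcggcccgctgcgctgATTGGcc
Ftl1: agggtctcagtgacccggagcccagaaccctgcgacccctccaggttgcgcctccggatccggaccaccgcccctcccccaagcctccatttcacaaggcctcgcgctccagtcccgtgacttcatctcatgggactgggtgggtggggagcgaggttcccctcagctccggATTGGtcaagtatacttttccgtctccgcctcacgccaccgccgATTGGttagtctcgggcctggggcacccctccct
Ncoa4: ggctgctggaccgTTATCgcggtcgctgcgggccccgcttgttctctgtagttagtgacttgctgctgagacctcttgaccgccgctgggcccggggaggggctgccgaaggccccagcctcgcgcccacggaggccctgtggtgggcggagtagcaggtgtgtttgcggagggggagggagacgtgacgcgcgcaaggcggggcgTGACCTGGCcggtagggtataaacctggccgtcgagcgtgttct
None of the 10 windows held TTCNNNGAA, the palindrome that STAT5 binds, which was present in 7.02% of 32851 windows of the same length. CCAAT was found in 3 of the 10 (33.8% of all windows), GATAA in 3 (22.6%) and TGACNNNGC in 1, that of Ncoa4 (10.2%). Of the 3 windows with GATAA, 2 are overlapping Ncoa4 windows that share a single match, and the other is a Fth1 window not shown. The 2 matches in the Ncoa4 window do not overlap each other. These are matches of letters in a short window and no test of binding.

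The deposited values are linear intensities, called signals here. A signal of 162.5, below which 95% of the values of 27 bacterial control probe sets fell, served as control level, and all 13 probe sets exceeded it on all 6 arrays. Each difference is the mean log2 signal of knockout pools less that of wild type pools. Its standard error (SE) and 95% interval come from limma with a mean-variance trend. Levels are means of log2 signal ± SD over 3 pools. Over all 18193 genes the median difference was -0.085 with the deposited values. Quantile normalization made it -0.036 and median centring 0.028. As a check of the labels, all 4 probe sets of Stat5a and Stat5b read lower in every knockout pool than in any wild type pool (adjusted p between 0.0899 and 0.235, limma). Which part of each gene was deleted is not known here, and a probe set outside it would check nothing. Of 9 hepatocyte markers measured, all were lower in knockout (median -0.65), with summed signals between 142766 and 236293 in wild type and between 123328 and 135550 in knockout. Of 16 macrophage markers 9 were higher, with sums between 26211 and 43847 and between 32057 and 44687, and Cd163 alone was under the control level in both genotypes. Of 8 erythroid markers 7 were lower (median -0.19), with sums between 219504 and 229056 and between 175329 and 225890. Of 6 endothelial markers, of which Pecam1 and Tek had means under the control level in both genotypes, 5 were lower (median -0.35). The sums of the 6 were between 1949 and 3708 in wild type and between 1869 and 2285 in knockout. Among them Lyve1, a receptor gene of sinusoidal and lymphatic endothelium, read 277.7, 992.5 and 1024 in wild type and 139.5, 77.0 and 128.0 in knockout, where all 3 pools were under the control level (adjusted p = 0.0712, limma). In such bulk samples fewer cells of a type and less RNA per cell cannot be told apart, and the part of these cell types in the results below was not tested.

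No member of the group passed the threshold. In knockout 4 of the 13 probe sets read higher and 9 lower, and the intervals placed the differences between 1.76-fold lower and 1.66-fold higher. Adjusted p-values (limma, Benjamini-Hochberg over all probe sets) ran from 0.406 to 0.997, and 0 of 13 were called, where 0.155% of all probe sets were. At an unadjusted p under 0.05 there was 1 of 13 (7.69%), against 9.97% of all probe sets. The genotypes did not overlap at 1 of 13, against 15.8% of all probe sets. Same-numbered pools were also compared, though the labels do not call them pairs and the data match them only weakly. Knockout was lower in all 3 of these comparisons at 5 of 13 probe sets, against 20.0% of all probe sets. The 5 were Slc25a37, both of Ncoa4, Fth1 1448771_a_at and Pcbp2 1445381_at, and 4 of them belong to the bright probe sets described below. The median difference of the 13 probe sets was -0.13, against -0.072 over all probe sets. With 1 probe set per gene, 0 of 8 genes were called, where 0.440% of all genes were. The median difference of the 8 genes was then 0.046, against -0.085 over all genes. It was -0.080 with the mean of a gene's probe sets. The number of pools limits the precision, and an exact permutation test of 3 against 3 cannot give a two-sided p below 0.1.

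**Figure D1:**
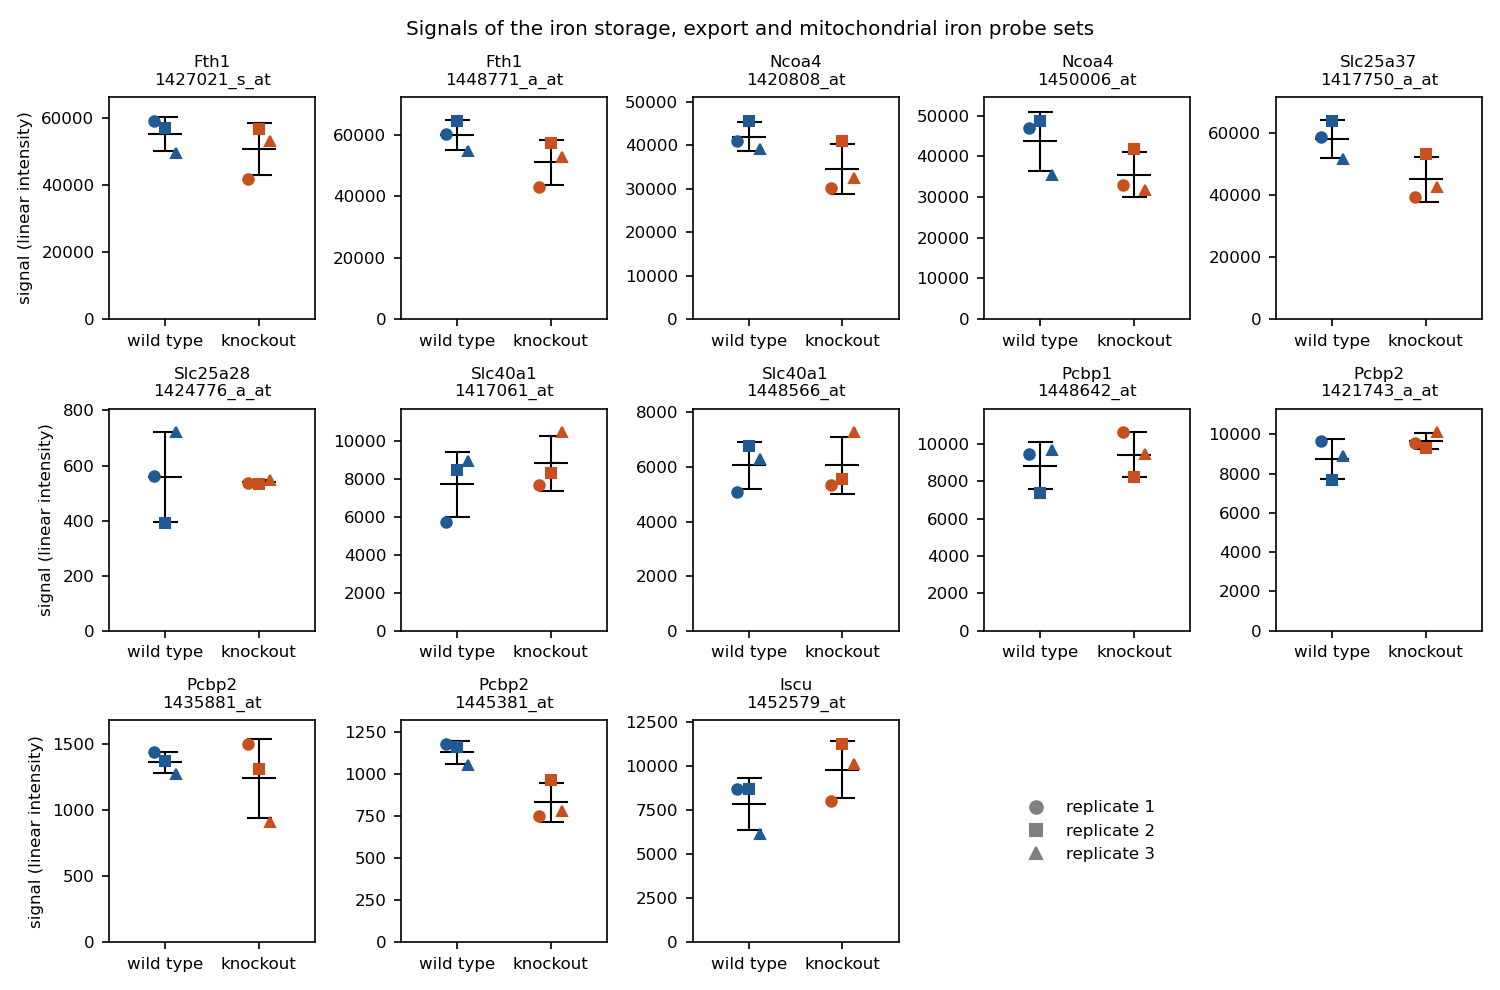
Signals (linear intensity, vertical axis from 0) of the 13 probe sets in wild type (blue) and knockout (orange) pools; the marker shape gives the replicate number and black bars the mean and SD of 3 arrays. The genotypes overlap in every panel except Pcbp2 1445381_at, where the 3 knockout pools read 749.4 to 966.8 and the wild type pools 1052 to 1179.

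The ferritin heavy chain gene Fth1, whose subunit oxidises iron on its way into the shell, read slightly lower on average in knockout pools. At 1448771_a_at the wild type pools read 60184, 64606 and 54886 and the knockout pools 43084, 57421 and 52827. Knockout replicates 1 and 3 lay below all wild type pools, and replicate 2 lay among them. The level was 15.87 ± 0.12 in wild type and 15.63 ± 0.21 in knockout, a difference of -0.24 (SE 0.16, interval -0.60 to 0.13). At 1427021_s_at, whose suffix marks probes that can match several transcripts, the difference was -0.13 (SE 0.17, interval -0.50 to 0.24), and it was 0.028 after quantile normalization. Without knockout replicate 1, the lowest pool, the differences were -0.12 at 1448771_a_at and -0.0011 at 1427021_s_at, and quantile normalization gave -0.056 at 1448771_a_at. The Fth1 signals were between 75.1% and 89.0% of the highest signal of their array.

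The light chain gene Ftl1 encodes the subunit that favours mineral formation inside the shell. At 1422302_s_at, shared with Ftl1-ps2, the wild type pools read 39924, 47867 and 40102 and the knockout pools 29571, 37556 and 36760, with all knockout pools below all wild type pools. The genotypes did not overlap at 15.8% of all probe sets. The difference at 1422302_s_at was -0.30 (SE 0.16, interval -0.66 to 0.050, adjusted p = 0.568, limma). Its signals were between 50.7% and 66.0% of the highest on their array, so that it is among the bright probe sets described below. The part of their shift in this difference was not tested. The other shared probe sets gave -0.25 (1418364_a_at) and -0.30 (1422301_at), each with overlapping genotypes. Signal of the gene and of its pseudogene copy cannot be told apart with these probe sets.

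Ncoa4, which encodes the receptor that delivers ferritin to the lysosome, gave nearly the same difference with both probe sets. At 1450006_at the signals were 46821, 48730 and 35457 in wild type and 32927, 41843 and 31727 in knockout. Knockout replicates 1 and 3 were the lowest of the 6 pools. The level went from 15.40 ± 0.25 to 15.10 ± 0.22, a difference of -0.30 (SE 0.18, interval -0.70 to 0.10). At 1420808_at it was -0.29 (SE 0.16, interval -0.65 to 0.066), and across the 6 arrays the probe sets had a Pearson r of 0.89. After median centring both differences were -0.18.

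The 5 probe sets of Fth1, Ncoa4 and the mitoferrin gene Slc25a37 read between 52.1% and 89.0% of the highest signal on their array. They were lowest in knockout replicate 1 with 4 of 5 and highest in wild type replicate 2 with 4 of 5. Knockout replicate 1 lay below all wild type pools with 5 of 5, replicate 3 with 4 and replicate 2 with 0. Among all 83 probe sets at least as bright as the dimmest of the 5, the median deviation from the wild type mean was -0.37 in knockout replicate 1, 0.049 in replicate 2 and -0.17 in replicate 3. Of those 83, 74.7% were lower in knockout, with a median difference of -0.15, against 56.2% and -0.072 over all probe sets. The differences of the 5 ran from -0.37 to -0.13, and after quantile normalization from -0.26 to 0.028. The part of this shift of bright probe sets in the differences was not tested.

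**Figure D2:**
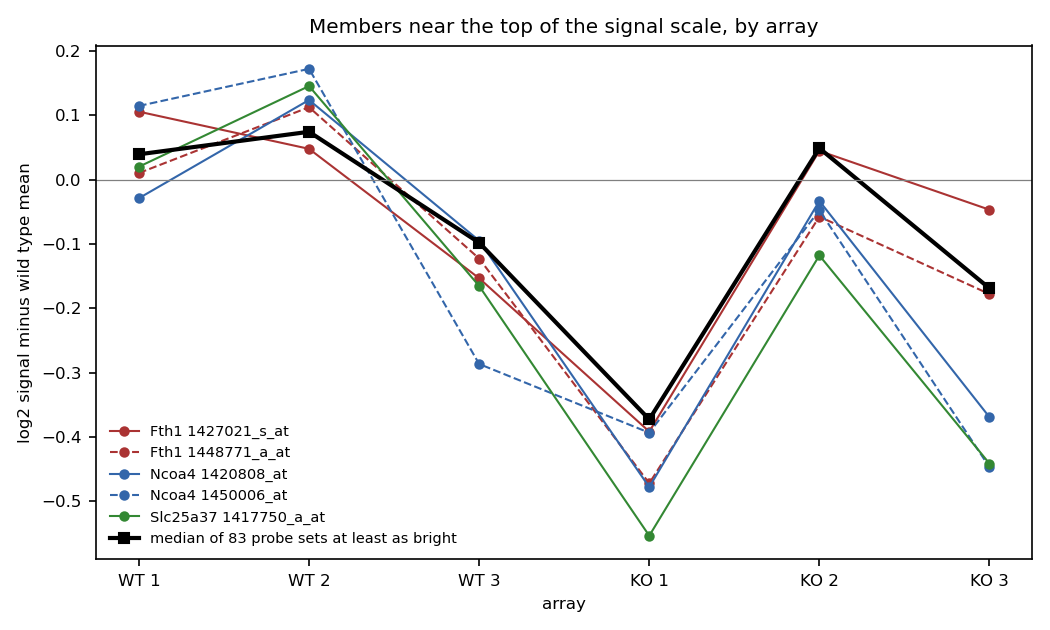
Log2 signal minus the wild type mean (vertical axis) on each of the 6 arrays (WT, wild type; KO, knockout) for the Fth1, Ncoa4 and Slc25a37 probe sets, with the median of all 83 probe sets at least as bright in black; lines only guide the eye. The median of bright probe sets is lowest in knockout replicate 1, at -0.37, as are 4 of the 5 members; Ncoa4 1450006_at is lowest in knockout replicate 3.

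The exporter gene Slc40a1 varied more among pools of 1 genotype than between genotypes. At 1417061_at the wild type pools read 5747, 8474 and 8950 and the knockout pools 7698, 8341 and 10471. The lowest value was that of wild type replicate 1 and the highest that of knockout replicate 3. The level was 12.89 ± 0.35 in wild type and 13.10 ± 0.23 in knockout, a difference of 0.21 (SE 0.19, interval -0.23 to 0.64), which shrank to 0.0086 when wild type replicate 1 was left out and to 0.080 when knockout replicate 3 was. It was 0.33 with wild type replicate 3 left out and 0.32 after median centring. The second probe set, 1448566_at, read 5100, 6776 and 6287 in wild type and 5325, 5575 and 7266 in knockout. Its difference was -0.0035 (SE 0.17, interval -0.38 to 0.37), or 0.11 after median centring. Both probe sets placed knockout replicate 3 highest and wild type replicate 1 lowest (r = 0.845 over 6 arrays).

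By Pearson correlation of log2 signal over the 6 arrays, the genes most like Slc40a1 at 1417061_at, among 9837 other genes above the control level on every array, were Fcna (r = 0.998), C1qa (0.993) and Sash1 (0.984). C1qa encodes a chain of complement C1q, a product of tissue macrophages, and Fcna encodes ficolin A, a lectin made by macrophages. The 6 arrays have the same order for Slc40a1, Fcna and C1qa. Fcna read 2223, 3001 and 3109 in wild type and 2749, 2902 and 3421 in knockout. Of the 15 macrophage markers above the control level on all arrays, 13 had an r above 0 with Slc40a1, with a median of 0.77. Adgre1, the gene of the macrophage antigen F4/80, had an r of 0.95, while Siglec1 (-0.59) and Clec4f (-0.49) went the other way. The median r was -0.24 with 8 erythroid and -0.35 with 9 hepatocyte markers. After the genotype means were taken out, the median with macrophage markers was 0.82. These values describe 6 arrays, in which all genes share the same pools and scaling. Without the 2 pools farthest from the median of Slc40a1, r over 4 arrays was 0.99 for Fcna, 0.88 for C1qa and 0.95 for Sash1. These genes were picked by their r on the same arrays, so the values are no separate support. The part of macrophage RNA in the Slc40a1 signal was not tested.

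**Figure D3:**
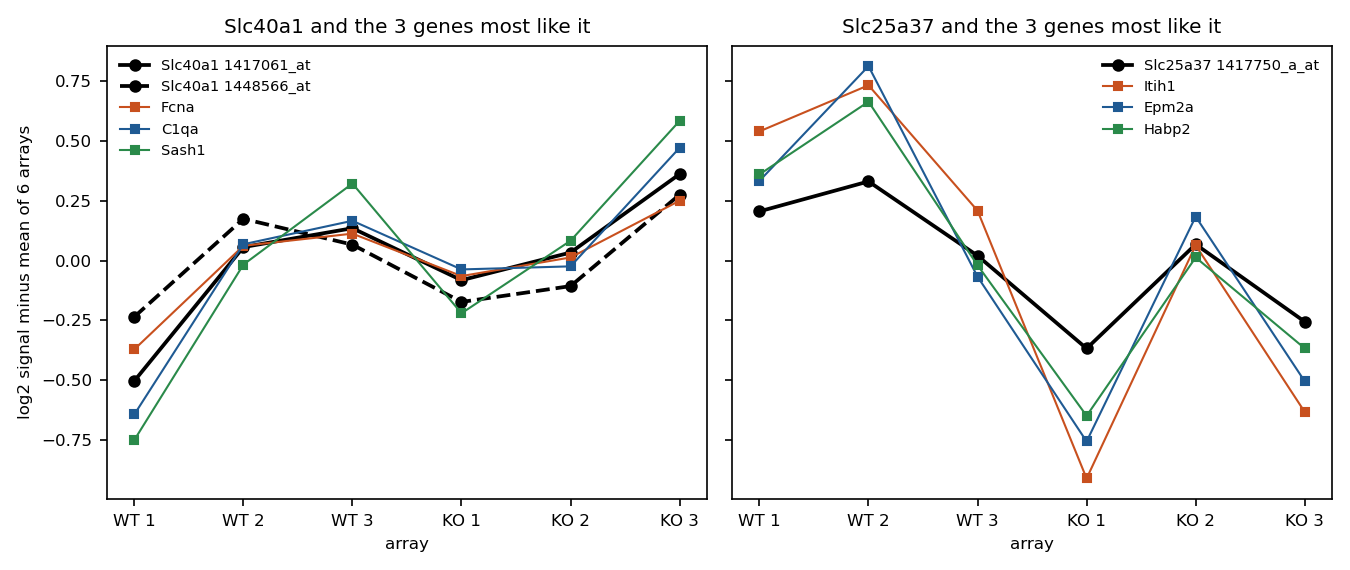
Log2 signal minus the mean of the 6 arrays (vertical axis) by array for Slc40a1 (left, both probe sets) and Slc25a37 (right) with the 3 genes of highest Pearson r; lines only guide the eye. On the left wild type replicate 1 is lowest and knockout replicate 3 highest for every line; on the right wild type replicate 2 is highest and knockout replicate 1 lowest.

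Slc25a37, or mitoferrin-1, the iron carrier of erythroid mitochondria, read lower on average in knockout pools. With each gene at its brightest probe set, this was the largest difference among the 8 genes on the deposited scale. After quantile normalization or median centring the difference of Iscu, which was upward, was larger in size. The wild type pools read 58775, 64109 and 51687 and the knockout pools 39496, 53417 and 42688. Knockout replicates 1 and 3 lay below all wild type pools, and replicate 2 above wild type replicate 3. Against the wild type pool of the same number the knockout pool was lower each time, with differences of -0.57, -0.26 and -0.28. That held for 20.0% of all probe sets, and the labels do not call these pools pairs. The level was 15.82 ± 0.16 in wild type and 15.45 ± 0.23 in knockout, 1.29-fold lower on average (difference -0.37, SE 0.17, interval -0.75 to 0.0057). It was not called (adjusted p = 0.509, limma) and was -0.22 after quantile normalization. The signals were between 70.4% and 88.3% of the highest on their array. The probe set shared with Gm16867 lay below the control level on all 6 arrays. The genes most like Slc25a37 over the 6 arrays were Itih1 (r = 0.990), which encodes a plasma protein made in liver, Epm2a (0.988), which encodes the glycogen phosphatase laforin, and Habp2 (0.988), which encodes another liver-made plasma protein. Its median r was 0.79 with 9 hepatocyte and 0.75 with 8 erythroid markers, and 0.51 and 0.34 after the genotype means were taken out. The hepatocyte median was 0.73 for Fth1 and 0.73 for Ncoa4 as well, and the erythroid median 0.59 and 0.61. After the genotype means were taken out, the hepatocyte medians were 0.46 and 0.54 and the erythroid medians 0.15 and 0.23. For Fth1 the highest r with a single marker was 0.96 among the erythroid and 0.87 among the hepatocyte markers. For Ncoa4 both were 0.91. Of the 8 erythroid markers 7 had an r above 0 with Slc25a37, while Epor (-0.57) went the other way. The highest r was 0.95 among the erythroid markers, with Slc4a1, and 0.92 among the hepatocyte markers, with Alb. After the genotype means were taken out, these were 0.94 and 0.81. An r of at least 0.95 was reached by 67 of 9837 other genes. The part of hepatocyte RNA in the Slc25a37 signal was not tested.

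Slc25a28, or mitoferrin-2, is the related carrier found in most tissues. Its signals were 562.4, 391.4 and 720.5 in wild type and 538.0, 532.5 and 547.2 in knockout, so that the knockout pools lay close together inside the wild type range. The difference was -0.0056 (SE 0.24, interval -0.55 to 0.53), and it was 0.044 after quantile normalization and 0.11 after median centring. The interval allows a change of 1.46-fold downward or 1.45-fold upward.

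Iscu encodes the scaffold on which mitochondria assemble iron-sulfur clusters. The wild type pools read 8722, 8702 and 6147 and the knockout pools 8052, 11262 and 10121, with knockout replicates 2 and 3 above all wild type pools. The level was 12.92 ± 0.29 in wild type and 13.25 ± 0.25 in knockout, a difference of 0.33 (SE 0.18, interval -0.084 to 0.74). It was not called (adjusted p = 0.602, limma), and the difference was 0.16 without wild type replicate 3, the lowest pool.

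Pcbp1 and Pcbp2 encode poly(C)-binding proteins, which bind RNA and also act as chaperones that hand iron to ferritin. Pcbp1 read 9447, 7367 and 9672 in wild type and 10610, 8227 and 9439 in knockout, and the knockout pools overlapped the wild type pools. The difference was 0.097 (SE 0.16, interval -0.25 to 0.45), and -0.028 without wild type replicate 2. Pcbp2 had 3 probe sets that did not go one way. The brightest, 1421743_a_at, read 9680, 7667 and 8894 in wild type and 9582, 9319 and 10100 in knockout, a difference of 0.15 (SE 0.13, interval -0.15 to 0.45). It was 0.058 with wild type replicate 2 left out, 0.23 with replicate 1 left out and 0.26 after median centring. With 1435881_at the difference was -0.16 (SE 0.20, interval -0.60 to 0.27), and knockout replicate 3 was the lowest pool, without which the difference was 0.042. With 1445381_at the signals were 1179, 1162 and 1052 in wild type and 749.4, 966.8 and 782.3 in knockout, and all knockout pools lay below all wild type pools. That difference, -0.45 (SE 0.17, interval -0.82 to -0.078), was the largest of the 13 on the deposited scale and the only one whose interval left out 0 there, with an adjusted p of 0.406 (limma). After median centring it was -0.34, smaller than the 0.44 of Iscu. Across the 6 arrays 1445381_at and the brightest probe set had an r of -0.59. Which Pcbp2 transcripts each probe set matches was not analysed here.

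**Figure D4:**
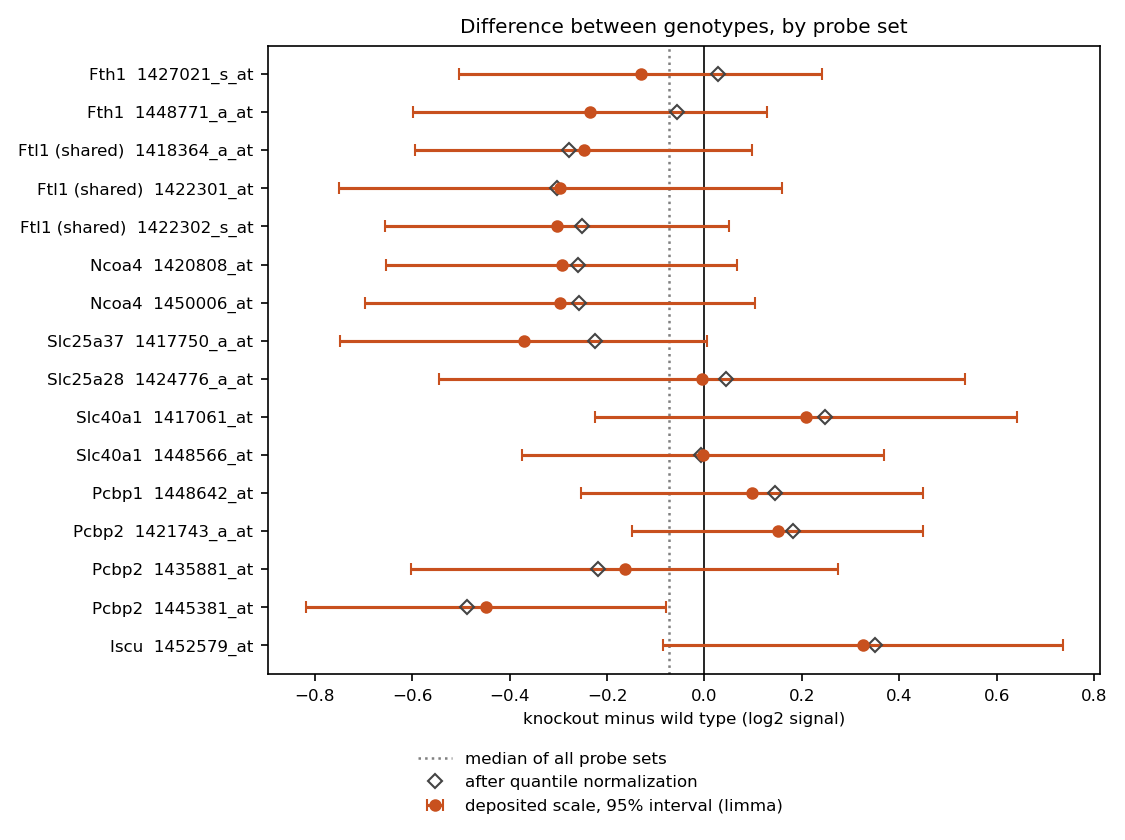
Knockout minus wild type difference in log2 signal (horizontal axis) for the 13 probe sets and the 3 shared Ftl1 probe sets, with the 95% interval of limma (orange); open diamonds are the differences after quantile normalization and the dotted line is the median of all probe sets, -0.072. All intervals cross 0 except that of Pcbp2 1445381_at.

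Related genes were compared within each array, as the log2 ratio of their brightest probe sets. The ratio of Slc25a37 to Slc25a28 was 6.74 ± 0.60 in wild type and 6.38 ± 0.24 in knockout (n = 3 each), a difference of -0.37 (two-sided exact permutation p = 0.50, adjusted p = 0.60 over 2 pairs). Leaving out wild type replicate 2 made it -0.059, and leaving out wild type replicate 3 made it -0.65. The ratio of Pcbp1 to Pcbp2 was 0.0094 ± 0.097 and -0.043 ± 0.17, a difference of -0.053 (exact permutation p = 0.60, adjusted p = 0.60), which was 0.25 with the mean of all probe sets of each gene. With 3 pools a genotype this exact permutation test cannot give a p below 0.1, so it could not have called an unequal change in either pair. The ratio of Fth1 to Ftl1 was not computed, as Ftl1 has no probe set of its own.

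Other genes of iron metabolism were taken from 5 lists, each gene at its brightest probe set, and 0 genes passed the threshold in either direction in any of them. Of 14 further genes of storage, export and trafficking, 5 were higher and 9 lower (median -0.16), and 2 had genotypes without overlap, as did 16.9% of all genes. Pcbp3, a related poly(C)-binding protein gene, read 530.3, 453.2 and 100.5 in wild type and 801.7, 717.0 and 734.8 in knockout (difference 1.38, SE 0.53, adjusted p = 0.377, limma), with wild type replicate 3 under the control level. Its other probe set differed by -0.055. Bmp6, a ligand that induces hepcidin, was under the control level on every array. Of 9 genes of iron uptake and regulation, 4 were higher and 5 lower (median -0.012). Tfrc, the transferrin receptor gene, read 33762, 35027 and 36416 in wild type and 24942, 31581 and 24756 in knockout. The difference was -0.38 (SE 0.16, adjusted p = 0.425, limma), without overlap. Tfrc was the only gene of its list without overlap (11.1%), against 16.9% of all genes. Its other probe sets differed by -0.49 and -0.50 (adjusted p = 0.260 and 0.281 over all probe sets, limma), also without overlap. Steap4, a metalloreductase gene, had means under the control level in both, with 1 knockout pool above it.

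Of 19 genes of iron-sulfur cluster assembly, 9 were higher and 10 lower in knockout (median -0.0035), and 4 (21.1%) were without overlap, against 16.9% of all genes. Isca2, a late-acting assembly factor gene, read 2827, 2490 and 2928 in wild type and 3209, 3807 and 3661 in knockout (difference 0.37, SE 0.13, adjusted p = 0.331, limma). Hscb, the cochaperone gene that acts with the ISCU scaffold, differed by -0.51 (SE 0.20, adjusted p = 0.388, limma), with overlapping genotypes. Of 9 genes of heme synthesis and its mitochondrial partners, 4 were higher and 5 lower (median -0.12), and 0 were without overlap, against 16.9% of all genes. Uros, a heme pathway enzyme gene, differed by 0.28 (SE 0.15) and Abcb10, a mitochondrial transporter that binds mitoferrin-1, by -0.38 (SE 0.23).

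The NRF2-BACH1 list holds regulators and targets of the antioxidant response, which also controls ferritin and ferroportin genes. Of its 10 genes 6 were higher and 4 lower (median 0.044). At an unadjusted p under 0.05 there were 4, against 11.0% of all genes, and 5 had genotypes without overlap, against 16.9% of all genes. Gclc, a glutathione synthesis enzyme gene, read 4074, 2443 and 3774 in wild type and 4874, 5005 and 5509 in knockout, a difference of 0.61 (SE 0.19, adjusted p = 0.264, limma). Its other probe set differed by 0.76 (adjusted p = 0.0763 over all probe sets, limma), again with all knockout pools above all wild type pools. Bach1, which encodes a heme-sensing repressor, read 2398, 2208 and 2199 in wild type and 1769, 1768 and 1798 in knockout (difference -0.35, SE 0.12, adjusted p = 0.323, limma). At the other Bach1 probe set the difference was -0.37 (adjusted p = 0.568 over all probe sets, limma), with overlapping genotypes. Nfe2l2, the gene of NRF2, and Keap1, the gene of its inhibitor, differed by 0.39 and 0.38, both without overlap. The other Nfe2l2 probe set was under the control level on every array and differed by 0.050. The other Keap1 probe set differed by 0.62, without overlap. The fifth gene without overlap was Nqo1, a quinone reductase gene induced by NRF2, which read lower in knockout by a small margin (-0.13, SE 0.13). Gclm, the gene of the partner subunit of Gclc, also read lower (-0.17, SE 0.16), with overlapping genotypes. Hmox1, a target of both factors that degrades heme, differed by 0.23 (SE 0.41).

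**Figure D5:**
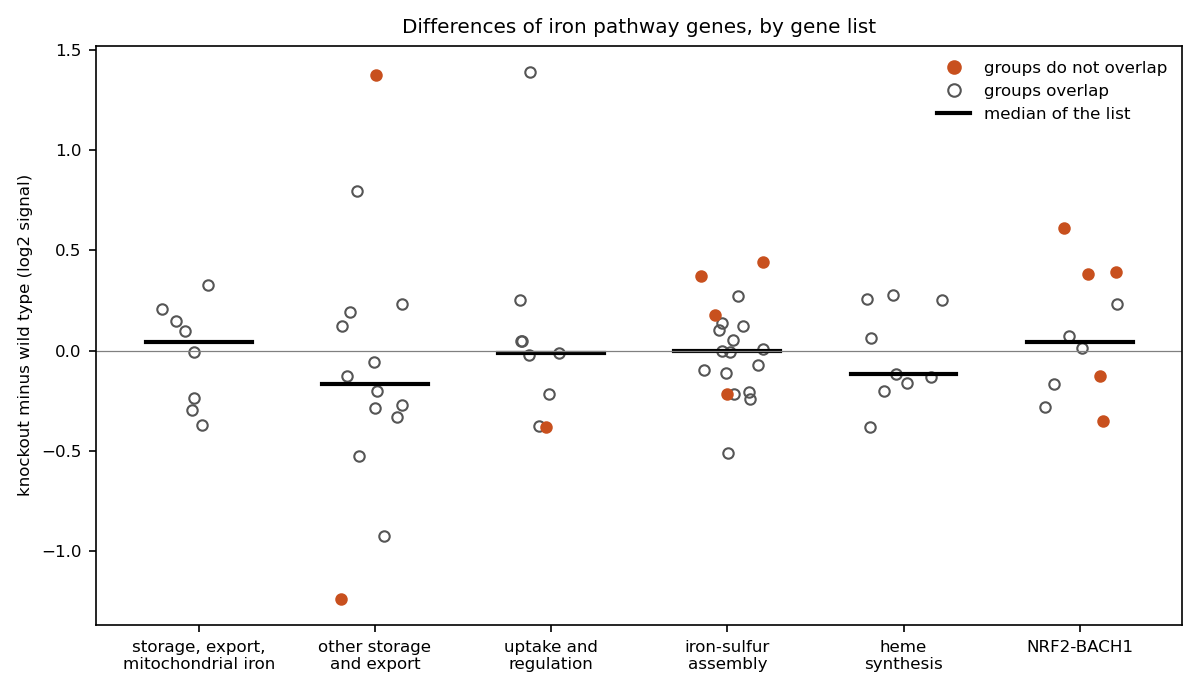
Knockout minus wild type difference in log2 signal (vertical axis) of each gene at its brightest probe set, by gene list; filled points are genes whose genotypes do not overlap and black bars are list medians. The list medians lie between -0.16 and 0.046, and the storage, export and mitochondrial iron genes include no filled point.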

How the data were processed

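RNA from 6 pools, 3 wild type and 3 knockout, was measured on 1 array each. The authors deposited 1 intensity per probe set and array, on a linear scale. RMA and Partek are named, without version, in the submitters' processing notes, while the scaling of the arrays is not stated there. From these values log2 was taken with no pseudocount, and 64 control probe sets were left out.

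Genes came from the platform annotation: a single symbol was given for 34945 probe sets, several for 932 and none for 9160. For each gene the brightest probe set on average was used. The main test was limma 3.58.1 in R 4.3.3 (lmFit, and eBayes with a mean-variance trend, since dim probe sets vary more), knockout against wild type on all 6 arrays, with Benjamini-Hochberg adjustment over all probe sets or all genes and a threshold of 0.05. The fit was tested on simulated data, with added differences larger than that of any member. How it treats smaller differences was not tested. The titles give replicate numbers and do not say that same-numbered pools were paired. Deviations from the genotype means correlated by 0.161, 0.159 and 0.103 between same-numbered pools. Between pools of different number the correlations ran from -0.159 to 0.027. The match is weak, and some matching must come out highest, so a pairing is not shown.

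Named genes were all members, all Stat5a and Stat5b probe sets, from each pathway list the 2 genes with the smallest p where fewer than 2 passed, and the 3 genes most correlated with Slc40a1 and with Slc25a37. Hmox1, Nfe2l2, Keap1, Nqo1, Gclm, Adgre1, Siglec1, Clec4f, Cd163, Lyve1, Pecam1, Tek, Epor, Slc4a1 and Alb were named outside this rule, after their values were seen. Members, lists and tests were chosen with earlier results of these data known. The alternatives were no trend, robust estimation, the methods' t-test, quantile normalization, median centring, 32 added before log2, the dimmer probe sets left out, the replicate number as a block, the mean of a gene's probe sets and each array left out in turn. Symbols of 2 list genes, Fam96a and Fam96b, were updated through RefSeq.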

Additional observations from a re-analysis of the deposited data

How the results depend on the processing

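Across all alternatives 0 member probe sets, 0 member genes and 0 genes of the 5 pathway lists were called, with the replicate number as a block as well, where the smallest adjusted p of a member probe set was 0.370 (limma); the block changed no call. These counts show little of stability, since few probe sets were called at all: 70 of 45037 in the main setting, 0 without the trend and 0 with the methods' t-test, 33 after median centring, 189 with the dimmer probe sets left out and 7 to 78 without 1 array. The smallest adjusted p of a member probe set over all alternatives was 0.280 (limma), with the dimmer probe sets left out. Of 182 values of single member probe sets under an alternative, 169 kept their direction and 13 turned it. The 169 include values that could not turn. No trend, robust estimation, the methods' t-test, the replicate block and leaving out dimmer probe sets leave each difference as it was. After quantile normalization Fth1 1427021_s_at was 0.028 and Slc25a28 0.044. After median centring Slc25a28 was 0.11 and Slc40a1 1448566_at 0.11. Without 1 array the differences ran from -0.24 to 0.20 for Slc25a28, from -0.14 to 0.083 for Slc40a1 1448566_at, from -0.028 to 0.19 for Pcbp1 and from -0.32 to 0.042 for Pcbp2 1435881_at. The median difference of the member genes was 0.046, and ran from -0.10 (without wild type replicate 2) to 0.16 (without wild type replicate 3) with 1 array left out. It was 0.16 after median centring, -0.080 with the mean of a gene's probe sets and 0.15 without Fth1, Ncoa4 and Slc25a37, and -0.0056 with Ftl1 at its shared probe set, both chosen after seeing the data; the cause was not tested. The ratio of Pcbp1 to Pcbp2 differed by 0.25 with the mean of all probe sets, and by -0.15 to 0.015 without 1 array, and that of Slc25a37 to Slc25a28 by -0.65 to -0.059 without 1 array. Fth1, Ncoa4 and Slc25a37 read near the top of each array's range, whose part in their differences was not tested, and 3 pools a genotype limit the precision of all members.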
